A study of Homo sapiens and Mus musculus with 24 samples.

Results

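The 5 genes described here are FOXO1, FOXO3, FOXO4, BCL6 and FBXO32. They are the 3 FOXO factors with appreciable expression in MCF10A cells and a pair of genes known as FOXO targets, and they were chosen by symbol among 56981 symbols listed for MCF10A. The choice was made with earlier results of these data known. All reads assigned to the annotated transcripts of a gene were summed, and each of these 5 symbols belonged to 1 gene identifier. MCF10A is a non-tumorigenic human mammary epithelial cell line. The study compared its parental line, wild type for PIK3CA, with an isogenic line that carries PIK3CA H1047R on 1 allele, called KI (knock-in) below. PIK3CA encodes the catalytic subunit of a lipid kinase, and H1047R makes that enzyme more active.

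Each line received the solvent DMSO or alpelisib (BYL719), an inhibitor of PI3K alpha, at 1 uM for 4 h, and each of these 4 groups has 3 RNA-seq libraries. Both lines were purchased from Horizon. Each genotype was 1 line, so the effect of the allele and any other difference between the lines cannot be told apart. The labels do not say whether replicates were separate cultures, and p-values then measure only the spread between these libraries, which may be technical. Mouse fibroblast libraries of the same series were not used here.

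FOXO proteins are forkhead transcription factors at the end of the PI3K pathway. PI3K activates AKT, AKT phosphorylates FOXO proteins, and phosphorylated FOXO is bound by 14-3-3 proteins and kept in the cytoplasm. When PI3K activity falls, FOXO proteins enter the nucleus and activate genes of cell cycle arrest, metabolism, receptor signalling and cell death. BCL6 is a BTB and zinc finger transcriptional repressor best known from germinal centre B cells, and it can repress its own gene. FBXO32 (atrogin-1) is the substrate-binding F-box subunit of an SCF ubiquitin ligase best known from muscle atrophy. FOXO genes have themselves been described as FOXO targets. RNA-seq measures the transcripts of these genes and not the location or phosphorylation of the FOXO proteins.

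Stretches of promoter are shown first, because the members' own genes may carry the letters that FOXO factors or BCL6 bind. RefSeq promoter windows of 300 bases, from 250 bases before to 50 bases from a gene start, on the GRCh38.p14 build and on the strand of the gene, were searched on both strands. The motifs were GTAAACA and ATAAACA for FOXO factors and TTCCTAGAA and TTCTTAGAA for BCL6. Capitals mark the matches, and no matches overlapped. From BCL6 only the 30 bases around a pair of its motifs are printed, and from the other genes the bases up to the start or the motif.
BCL6, chr3:187745447-187745476, minus strand: tgaTTCTTAGAActggggTTCTTAGAAgtg
FOXO4, chrX:71095601-71095880, plus strand: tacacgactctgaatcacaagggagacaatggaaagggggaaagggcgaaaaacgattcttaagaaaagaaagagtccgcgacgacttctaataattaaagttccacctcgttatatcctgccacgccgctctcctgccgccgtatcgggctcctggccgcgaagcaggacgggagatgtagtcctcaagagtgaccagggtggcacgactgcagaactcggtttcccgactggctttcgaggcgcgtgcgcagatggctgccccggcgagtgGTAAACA
FOXO3 before FOXO3-202, chr6:108560667-108560865, plus strand: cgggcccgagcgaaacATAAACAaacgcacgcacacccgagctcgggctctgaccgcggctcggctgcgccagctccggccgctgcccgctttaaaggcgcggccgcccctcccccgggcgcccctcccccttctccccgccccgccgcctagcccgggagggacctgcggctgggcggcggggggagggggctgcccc
FOXO3 before FOXO3-201, chr6:108559575-108559824, plus strand: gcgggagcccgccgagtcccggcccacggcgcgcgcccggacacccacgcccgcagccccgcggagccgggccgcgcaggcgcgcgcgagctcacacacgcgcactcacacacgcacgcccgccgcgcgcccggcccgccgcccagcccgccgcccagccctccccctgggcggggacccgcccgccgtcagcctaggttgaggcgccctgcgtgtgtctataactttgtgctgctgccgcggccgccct
FOXO1, chr13:40666642-40666891, minus strand: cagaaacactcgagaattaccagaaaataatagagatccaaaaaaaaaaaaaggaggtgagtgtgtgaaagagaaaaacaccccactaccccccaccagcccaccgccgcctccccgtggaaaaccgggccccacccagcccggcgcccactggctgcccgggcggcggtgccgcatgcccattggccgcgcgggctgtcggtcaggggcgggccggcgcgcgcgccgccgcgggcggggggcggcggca

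The outer of 2 BCL6 windows held 3 BCL6 motifs, TTCTTAGAA at positions -5 and 11 and TTCCTAGAA on the opposite strand at position 37, counted from the RefSeq start as 1 with no position 0. In GENCODE this stretch lies in the first, non-coding exon of BCL6-202, the main BCL6 transcript. TTCTTAGAA was present in 0.336% of all 35116 promoter windows and TTCCTAGAA in 0.373%. The FOXO4 window held GTAAACA at position 24, a motif found in 3.42% of windows. The window before FOXO3-202 held ATAAACA at position -234, a motif found in 4.24% of windows.

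The inner BCL6 window, the window before FOXO3-201, 2 further FOXO3 windows and the FOXO1 window held none of the 4 motifs, which says only that these letters are not in those 300 bases. A match is a description of the sequence, and binding was not measured. No promoter sequence is shown for FBXO32.

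In GENCODE annotation of GRCh38 the genes lie at chr13:40469953-40666597 (FOXO1, minus strand), chr6:108559835-108684774 (FOXO3, plus strand), chrX:71096197-71103535 (FOXO4, plus strand), chr3:187721377-187745727 (BCL6, minus strand) and chr8:123497889-123541206 (FBXO32, minus strand). Levels are CPM, counts scaled to a common library size, from library totals of 120177015 to 162755457 estimated read pairs. FOXO4, the member with the fewest reads, had 1011 to 2386 pairs per library. Overlapping annotated genes were low: LINC00598 in FOXO1 reached 0.609 CPM, and the antisense genes AC072022.1 and AC072022.2 at BCL6 reached 0.0375 and 0.14 CPM.

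All 12 mammary epithelial markers were at 1 CPM or more in every library. Their sum was lower in KI libraries (8362 to 8794 CPM) than in parental ones (9680 to 10118 CPM), without overlap. Single markers varied by unlike amounts over the 12 libraries, from 3190 to 3997 CPM for KRT5 and from 23.1 to 108 CPM for TP63. Of 8 lymphocyte markers, the cells in which BCL6 is best known, none reached 1 CPM in all libraries, and their summed level was 0.431 to 0.742 CPM. Of 8 skeletal muscle markers none did either, their sum was 0.506 to 0.89 CPM, and MYOD1 and MYOG were at 0 in all 12 libraries. Of 6 endothelial markers none did, and they summed to 1.58 to 1.70 CPM with DMSO and 2.48 to 2.70 CPM with BYL719 in parental cells, and to 1.22 to 1.88 and 2.77 to 3.04 CPM in KI cells. Of 6 fibroblast markers 2 reached 1 CPM in all libraries (COL1A1 and DCN), and the 6 summed to 28.4 to 30.1 CPM with DMSO and 34.7 to 37.7 CPM with BYL719 in parental cells, and to 76.0 to 78.4 and 141 to 179 CPM in KI cells, with DCN reaching 148 CPM and LUM at most 0.168 CPM. That order of groups is also the order of FOXO1 below, and the endothelial sum was higher under BYL719 in both lines, as were the members. Among the 6 endothelial markers KDR reached 2.19 CPM, and the next highest, TEK, reached 0.470 CPM. The part of the epithelial, fibroblast or endothelial markers in the results was not tested. In bulk libraries fewer cells of a type and less RNA per cell cannot be told apart.

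PIK3CA itself had mean levels of 57.8 CPM (parental DMSO), 69.0 CPM (parental BYL719), 40.2 CPM (KI DMSO) and 70.5 CPM (KI BYL719). The knock-in alters a codon and not the gene dose, so this level does not check the line labels. KI DMSO replicate 2 stood apart from its group on the second principal component, which held 13.2% of the variance. It had the lowest level of its group for all 5 members, at 0.739 (BCL6) to 0.861 (FBXO32) of the mean of the other 2 libraries, and PIK3CA was at 0.767. Where leaving it out changed the call or sign of a member, both fits are given below. Without it the BYL719 changes in KI cells kept their calls but were smaller. They were log2 0.57 for FOXO1, 0.40 for FOXO3, 0.77 for FOXO4, 1.52 for BCL6 and 1.43 for FBXO32. Line differences in DMSO were then 0.84 for FOXO1, -0.55 for FOXO4 and -0.94 for BCL6. Interactions were 0.44 for FOXO4, 0.68 for BCL6 and 0.69 for FBXO32. These calls were kept too.

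FOXO1, the FOXO factor that governs hepatic glucose output and much else in insulin signalling, was higher in the KI line under both treatments, and BYL719 raised it in KI cells. In parental replicates 1, 2 and 3, FOXO1 was at 24.3, 23.8 and 24.1 CPM in DMSO and at 29.5, 30.3 and 30.4 CPM in BYL719. In KI replicates 1, 2 and 3, it was at 43.0, 32.0 and 42.2 CPM in DMSO and at 61.7, 66.4 and 62.4 CPM in BYL719. The 4 groups did not overlap, and they rose in the order parental DMSO, parental BYL719, KI DMSO and KI BYL719.

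FOXO1 was 1.65-fold higher in KI than in parental cells in DMSO (log2 0.72, SE 0.082, adjusted p = 2.63e-05 by edgeR's quasi-likelihood test with Benjamini-Hochberg adjustment over 21079 genes, as for every adjusted p of a gene below). Under BYL719 the KI line was 2.15-fold higher (log2 1.10, SE 0.082, adjusted p = 7.53e-07). BYL719 raised FOXO1 1.62-fold in KI cells (log2 0.70, SE 0.081, adjusted p = 6.17e-05). In parental cells its BYL719 libraries lay above the DMSO libraries (log2 0.32), but the difference did not pass the test (adjusted p = 0.0932). It passed without KI DMSO replicate 2, a library outside that comparison that adds to the shared estimate of spread (log2 0.31, adjusted p = 3.05e-05).

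FOXO3, a FOXO factor linked to stress resistance and apoptosis, had the highest CPM of the 5 genes, and BYL719 raised it in KI cells. In parental replicates 1, 2 and 3, FOXO3 was at 89.6, 87.0 and 88.5 CPM in DMSO and at 99.3, 100.4 and 101 CPM in BYL719. In KI replicates 1, 2 and 3, it was at 95.7, 72.2 and 91.6 CPM in DMSO and at 126.3, 125.6 and 121.6 CPM in BYL719. KI DMSO replicate 2 lay below every parental library and the other 2 KI DMSO libraries lay above every parental DMSO library, so the DMSO groups of both lines overlapped.

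FOXO3 rose 1.44-fold with BYL719 in KI cells (log2 0.52, SE 0.074, adjusted p = 0.000256), and under BYL719 it was 1.27-fold higher in KI than in parental cells (log2 0.34, SE 0.074, adjusted p = 0.00476). In parental cells the BYL719 libraries lay above the DMSO libraries, with a log2 difference of 0.18 that did not pass the test (adjusted p = 0.346). That difference passed without KI DMSO replicate 2 (log2 0.17, adjusted p = 0.00162). In DMSO the lines differed by a log2 of -0.01 (95% interval -0.17 to 0.15, adjusted p = 0.964). Without KI DMSO replicate 2 that difference changed sign and passed the test (log2 0.10, adjusted p = 0.0277).

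FOXO4, an X-linked FOXO factor, ran opposite to FOXO1 between the lines: in DMSO it was lower in KI cells. In parental replicates 1, 2 and 3, FOXO4 was at 13.7, 14.0 and 13.4 CPM in DMSO and at 17.7, 17.2 and 16.9 CPM in BYL719. In KI replicates 1, 2 and 3, it was at 9.42, 7.71 and 9.08 CPM in DMSO and at 14.3, 16.3 and 16.7 CPM in BYL719. All 3 KI DMSO libraries were below all parental ones, and no 2 groups overlapped.

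FOXO4 was 1.54-fold lower in KI than in parental cells in DMSO (log2 -0.62, SE 0.072, adjusted p = 3.26e-05). BYL719 raised it 1.80-fold in KI cells (log2 0.85, SE 0.072, adjusted p = 5.63e-06) and 1.26-fold in parental cells (log2 0.33, SE 0.071, adjusted p = 0.0444). The parental call was lost when any 1 of the 6 parental libraries, KI DMSO replicate 3, KI BYL719 replicate 2 or KI BYL719 replicate 3 was left out (log2 0.31 to 0.35, adjusted p = 0.0521 to 0.169). Under BYL719 the lines differed by a log2 of -0.10 (95% interval -0.26 to 0.05, adjusted p = 0.368).

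Set against each other per length, the FOXO transcripts differed in make-up between the lines. In TPM, a unit that divides by transcript length, FOXO1, FOXO3, FOXO4 and FOXO6 together came to 29.9 ± 0.167 in parental DMSO, 35.7 ± 1.41 in parental BYL719, 29.99 ± 6.03 in KI DMSO and 48.1 ± 0.864 in KI BYL719 (SD, n = 3). The KI DMSO mean leans on replicate 2. FOXO3 was at 12.1 TPM in that library, against 18.1 and 17.2 TPM in KI DMSO replicates 1 and 3. FOXO1 was at 6.91 TPM in it, against 10.6 and 10.4 TPM. FOXO3 was the main family member in every library, with 48.2% to 55.4% of the sum. FOXO1 held 20.2% ± 1.08 in parental DMSO and 30.9% ± 0.756 in KI DMSO, while FOXO4 held 22.2% ± 0.632 and 14.4% ± 0.904 (SD, n = 3).

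Within each library, the ratio of FOXO1 to FOXO4 TPM needs no scaling between libraries. It was 0.848, 0.987 and 0.904 in parental DMSO replicates 1, 2 and 3 and 0.903, 0.792 and 0.945 in parental BYL719. In the KI line it was 2.34, 2.03 and 2.07 in DMSO and 2.30, 1.96 and 1.83 in BYL719. The 6 KI libraries were all above the 6 parental libraries, the DMSO and BYL719 ranges overlapped within each line, and KI DMSO replicate 2 lay close to its group. FOXO4 exceeded FOXO1 in all 6 parental libraries and was below it in all 6 KI libraries.

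The remaining FOXO genes were scarce. FOXO6, a FOXO factor mostly studied in brain and liver, was at 1.37 ± 0.0531 CPM with DMSO and 1.42 ± 0.0958 CPM with BYL719 in parental cells, and at 0.903 ± 0.0393 CPM and 0.804 ± 0.271 CPM in KI cells (SD, n = 3). It was lower in KI than in parental cells in DMSO (log2 -0.58, SE 0.196, adjusted p = 0.038) and in BYL719 (log2 -0.80, SE 0.197, adjusted p = 0.0106). FOXO6 had only 70 to 230 pairs per library, and its calls were not rerun with libraries left out. Most FOXO6 reads, 70.7% to 100% per library, were assigned to FOXO6-201, annotated as a processed transcript and not as protein-coding. In the same test over transcripts, described below, FOXO6-201 did not pass between the lines in DMSO (log2 -0.67, adjusted p = 0.22). It did not pass in BYL719 either (log2 -0.70, adjusted p = 0.315). The protein-coding FOXO6-202 reached at most 0.351 CPM. FOXO3B, a processed pseudogene of FOXO3, was at 1.02 to 2.17 CPM, and adding its reads to FOXO3 gave 90.2 CPM in place of 88.4 in parental DMSO. FOXO1B, a FOXO1 pseudogene, never passed 0.0123 CPM and was not tested.

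BCL6 was lower in KI than in parental cells in DMSO, and BYL719 raised it in both lines. In parental replicates 1, 2 and 3, BCL6 was at 23.8, 24.4 and 25.3 CPM in DMSO and at 43.8, 44.0 and 44.6 CPM in BYL719. In KI replicates 1, 2 and 3, it was at 12.8, 9.38 and 12.6 CPM in DMSO and at 30.2, 42.0 and 37.8 CPM in BYL719. The groups did not overlap, their order was the same as for FOXO4 (KI DMSO, parental DMSO, KI BYL719, parental BYL719), and KI BYL719 had the widest spread of the 4.

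BCL6 was 2.08-fold lower in KI than in parental cells in DMSO (log2 -1.05, SE 0.117, adjusted p = 2.27e-05). BYL719 raised it 1.80-fold in parental cells (log2 0.84, SE 0.115, adjusted p = 0.00337) and 3.15-fold in KI cells (log2 1.66, SE 0.118, adjusted p = 1.46e-06). Under BYL719 the lines differed by a log2 of -0.24 (95% interval -0.49 to 0.01), which did not pass the test (adjusted p = 0.165).

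FBXO32 rose with BYL719 in both lines and ended higher in KI cells. In parental replicates 1, 2 and 3, FBXO32 was at 12.5, 12.6 and 13.5 CPM in DMSO and at 20.6, 21.5 and 22.7 CPM in BYL719. In KI replicates 1, 2 and 3, it was at 12.7, 10.4 and 11.5 CPM in DMSO and at 28.9, 34.6 and 34.8 CPM in BYL719. The DMSO groups of both lines overlapped, and the KI BYL719 libraries were above all others.

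BYL719 raised FBXO32 1.68-fold in parental cells (log2 0.75, SE 0.082, adjusted p = 0.000897) and 2.83-fold in KI cells (log2 1.503, SE 0.083, adjusted p = 1.94e-07). Under BYL719 it was 1.54-fold higher in KI than in parental cells (log2 0.63, SE 0.081, adjusted p = 9.33e-05). In DMSO the lines differed by a log2 of -0.13 (95% interval -0.31 to 0.05, adjusted p = 0.256), a difference that turned to 0.11 with effective-length offsets and passed the test in neither case. With these offsets the BYL719 changes of FBXO32 were smaller, at a log2 of 0.61 in parental and 1.07 in KI cells, and both passed.

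**Figure D1:**
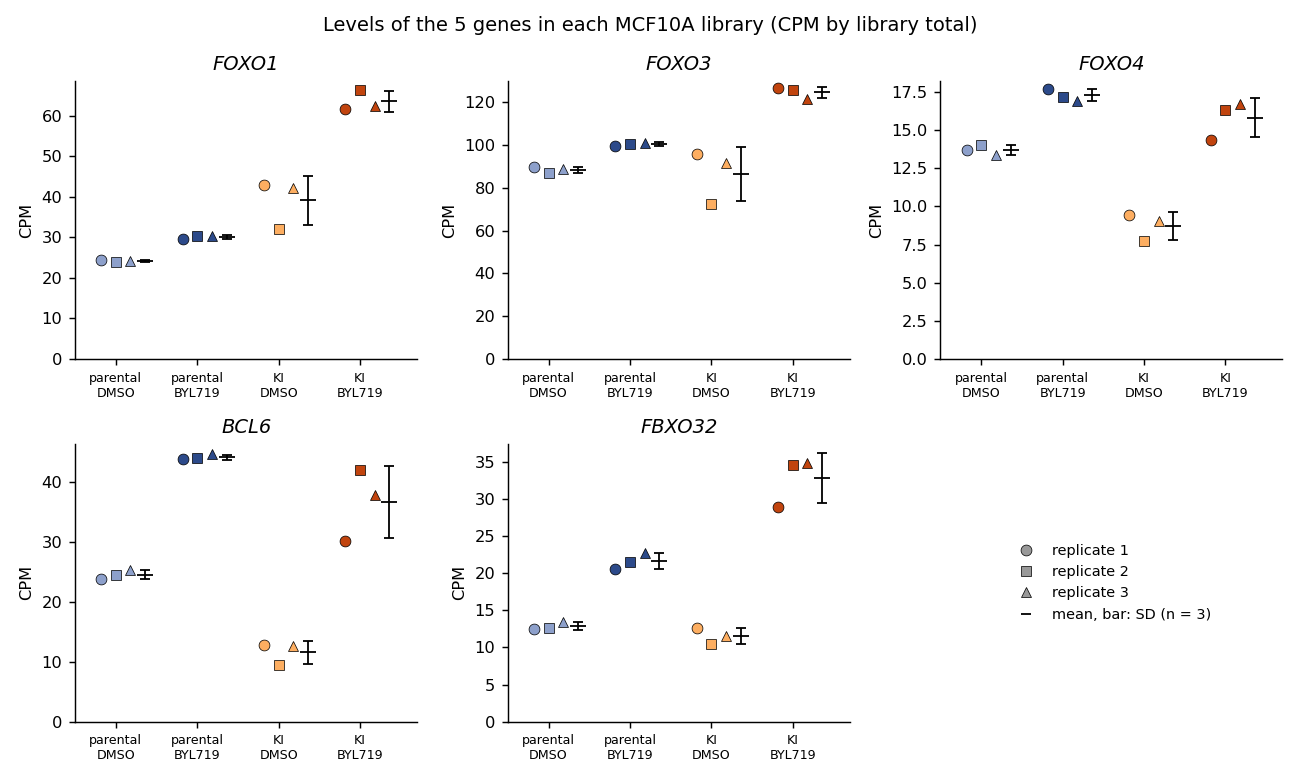
Each panel plots 1 gene in CPM for the 12 MCF10A libraries, with symbols for replicates 1 to 3, and a dash and bar for the mean and SD of the 3 libraries of a group. FOXO1 is higher in both KI groups than in both parental groups, FOXO4 and BCL6 are lowest in KI DMSO, and KI DMSO replicate 2 (square) is the lowest of its group in every panel.

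The comparison of the lines in DMSO asks how the line with the activating allele differs from the parental line without inhibitor. Of the 5 genes, 1 was called higher (FOXO1) and 2 were called lower (FOXO4 and BCL6). Of all 21079 genes tested, 34.2% were called in this comparison, 17% higher and 17.2% lower, so calls of this kind were common. The called genes did not overlap between the lines, as 20.2% of all genes did not with KI higher and 25.5% with KI lower. FOXO3 and FBXO32 did not pass the test.

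BYL719 against DMSO in parental cells asks how wild-type cells respond to the inhibitor. All 5 genes had BYL719 libraries above their DMSO libraries without overlap, as did 16.6% of all genes, while 14.9% lay below. Of the 5, 3 were called higher (FOXO4, BCL6 and FBXO32), against 0.844% of all genes called higher, 0.588% called lower and 1.43% called in either direction. FBXO32 ranked 22 and BCL6 ranked 53 by p among the 21079 genes. The members were chosen with earlier results of these data known. Their counts and ranks, here and in the other comparisons, are therefore a description and not independent evidence.

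BYL719 against DMSO in KI cells asks the same of mutant cells. All 5 genes were called higher, against 15.1% of all genes called higher, 13.2% called lower and 28.3% called in either direction. None of the 5 overlapped between treatments, as 20.6% of all genes did not with BYL719 higher and 17.6% with BYL719 lower. The changes ran from a log2 of 0.52 (FOXO3) to 1.66 (BCL6), and FBXO32 ranked 43 by p. Under BYL719, 3 genes were higher in KI than in parental cells (FOXO1, FOXO3 and FBXO32), against 11.4% of all genes called higher, 10.9% called lower and 22.3% called in either direction, and 20.9% of all genes lay above without overlap. FOXO4 and BCL6 were below the parental range in all 3 KI BYL719 libraries, as were 25.2% of all genes, and did not pass the test. These comparisons share groups with one another, and each rests on its own values.

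**Figure D2:**
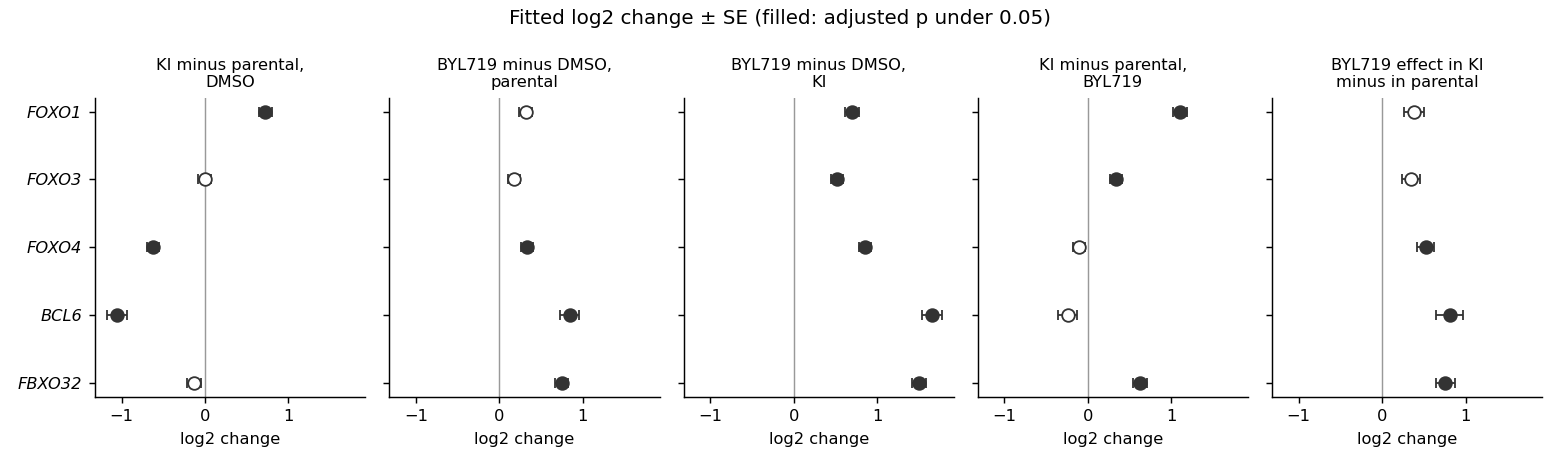
Points are fitted log2 changes with bars of 1 SE for the 5 genes (rows) in 5 comparisons (panels), and filled points have an adjusted p under 0.05. All points for BYL719 against DMSO lie right of 0 in both lines, and between the lines in DMSO FOXO1 lies at 0.72 while BCL6 lies at -1.05.

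The interaction, the BYL719 effect in KI minus that in parental cells, tests whether the lines responded differently. It was called positive for 3 of the 5 genes, against 2.08% of all genes called positive, 0.797% called negative and 2.87% called in either direction. The extra rise in KI cells was 0.81 on the log2 scale for BCL6 (SE 0.163, adjusted p = 0.02). FBXO32 rose by 0.76 more in KI cells (SE 0.115, adjusted p = 0.00449) and FOXO4 by 0.52 more (SE 0.101, adjusted p = 0.0174). FOXO1 (0.38, SE 0.115, adjusted p = 0.108) and FOXO3 (0.34, SE 0.104, adjusted p = 0.109) did not pass.

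The interaction calls differed in how they stood up to leaving out 1 library. FBXO32 kept its call in all 12 such fits (adjusted p = 0.00128 to 0.021). BCL6 lost it without parental DMSO replicate 2 or 3, any parental BYL719 replicate, or KI BYL719 replicate 2 or 3 (log2 0.71 to 0.82, adjusted p = 0.054 to 0.0684). FOXO4 lost it without replicate 2 or 3 of parental DMSO, parental BYL719 or KI BYL719 (log2 0.48 to 0.53, adjusted p = 0.0543 to 0.062). FOXO1 and FOXO3 gained a call without KI DMSO replicate 1 (0.43 and 0.39) or without KI DMSO replicate 2 (0.26, adjusted p = 0.00305, and 0.23, adjusted p = 0.00354). With effective-length offsets all 3 calls were lost, with log2 values of 0.72 for BCL6, 0.46 for FBXO32 and 0.46 for FOXO4.

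**Figure D3:**
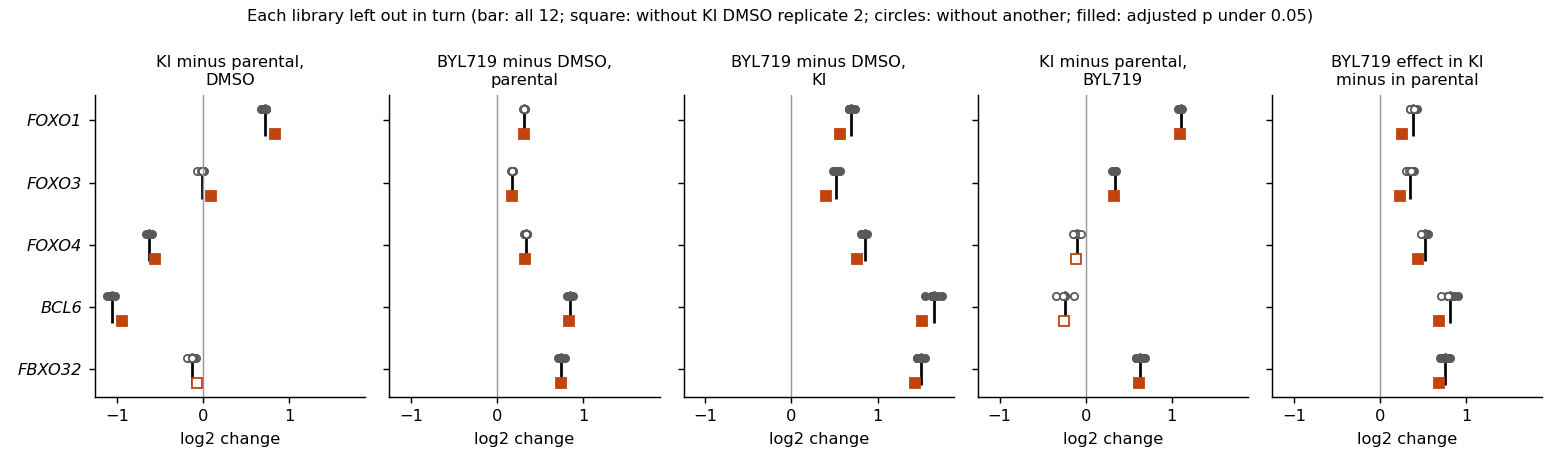
Each panel gives the fitted log2 change of 1 comparison with all 12 libraries (vertical bar), without KI DMSO replicate 2 (square) and without each of the other 11 libraries (circles), filled where the adjusted p is under 0.05. Leaving out KI DMSO replicate 2 moves FOXO3 between the lines in DMSO from -0.01 to 0.10, and the BYL719 effects in KI cells stay filled for all 5 genes.

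Annotated transcripts showed which forms carried these changes. FOXO1-201 carried nearly all FOXO1 reads, FOXO4-202 96.6% to 97.2% of FOXO4 by group mean, and BCL6-202, whose first exon holds the BCL6 motifs printed above, 86.7% to 90.4% of BCL6. The estimates of Salmon divide shared reads among similar transcripts, and that error is not in the test. In a separate fit of the same test, adjusted over the 93545 transcripts tested, 4.88% were called between the lines in DMSO, 0.0267% with BYL719 in parental cells, 3.56% with BYL719 in KI cells, 2.85% between the lines in BYL719 and 0.0748% in the interaction. BCL6-202 rose with BYL719 by a log2 of 1.64 in KI cells (adjusted p = 3.19e-05) and 0.85 in parental cells (adjusted p = 0.0299). The parental call was lost without any 1 of the 6 parental libraries, KI DMSO replicate 3 or KI BYL719 replicate 3 (adjusted p = 0.0762 to 0.184).

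FOXO3 reads were divided between FOXO3-201 and FOXO3-202, protein-coding transcripts with different first exons whose upstream stretches are printed above. FOXO3-201 was at 47.4, 35.9 and 44.2 CPM in KI DMSO replicates 1, 2 and 3 and at 73.3, 79.1 and 90.6 CPM in KI BYL719. FOXO3-202 was at 48.3, 36.3 and 47.4 CPM in KI DMSO and at 52.4, 46.5 and 30.9 CPM in KI BYL719. The first form rose without overlap and the second overlapped, with replicate 3 low for FOXO3-202 where it was high for FOXO3-201.

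In KI cells FOXO3-201 rose with BYL719 (log2 0.90, SE 0.091, adjusted p = 0.000717), whereas FOXO3-202 differed by -0.05 (SE 0.172, adjusted p = 0.927). FOXO3-201 made up 62.4% ± 3.49 of FOXO3 reads in parental DMSO, 59.2% ± 1.82 in parental BYL719, 49.2% ± 0.777 in KI DMSO and 65.2% ± 8.44 in KI BYL719 (SD, n = 3). The KI DMSO share, at 48.3% to 49.7% in its 3 libraries, was below all 9 other libraries, replicate 2 included in that narrow range. The interaction for FOXO3-201 was 0.80 (SE 0.129, adjusted p = 0.0816) and did not pass. Whether the responses of both FOXO3 forms differ was not tested. In the same transcript fit the interaction also did not pass for BCL6-202 (0.79, adjusted p = 0.123) or FBXO32-203 (0.83, adjusted p = 0.156). Nor did it for FOXO4-202 (0.50, adjusted p = 0.17), although the interaction was called for these genes as a whole.

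FBXO32-203, the longest protein-coding form, carried 62.3% to 70.8% of FBXO32 reads by group mean, and retained-intron forms carried much of the rest. FBXO32-203 was at 8.16, 5.74 and 7.75 CPM in KI DMSO replicates 1, 2 and 3 and at 19.9, 24.9 and 25.0 CPM in KI BYL719. It rose in KI cells (log2 1.65, SE 0.114, adjusted p = 6.67e-05), and the parental difference of 0.82 did not pass (adjusted p = 0.0665), though it did without KI DMSO replicate 2 (adjusted p = 0.0135). The retained-intron form FBXO32-201 also rose in KI cells (log2 1.70, SE 0.206, adjusted p = 0.00191).

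The retained-intron form FBXO32-204 was called higher in KI than in parental cells, at low levels and with calls that most fits without 1 library lost. It was at 0.956, 0.986 and 0.835 CPM in parental DMSO replicates 1, 2 and 3 and at 1.34, 1.498 and 1.43 CPM in KI DMSO, without overlap. It was higher in KI cells in DMSO (log2 0.66, SE 0.157, adjusted p = 0.0402), a call that only the fit without KI BYL719 replicate 1 kept among the 12 fits that left out a library (adjusted p = 0.0535 to 0.156 in the other 11). Under BYL719 it was also higher in KI cells (log2 0.77, SE 0.157, adjusted p = 0.028), a call lost in 7 of those 12 fits (adjusted p = 0.0527 to 0.135). BYL719 in KI cells changed it by a log2 of 0.41 that did not pass (adjusted p = 0.212).

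**Figure D4:**
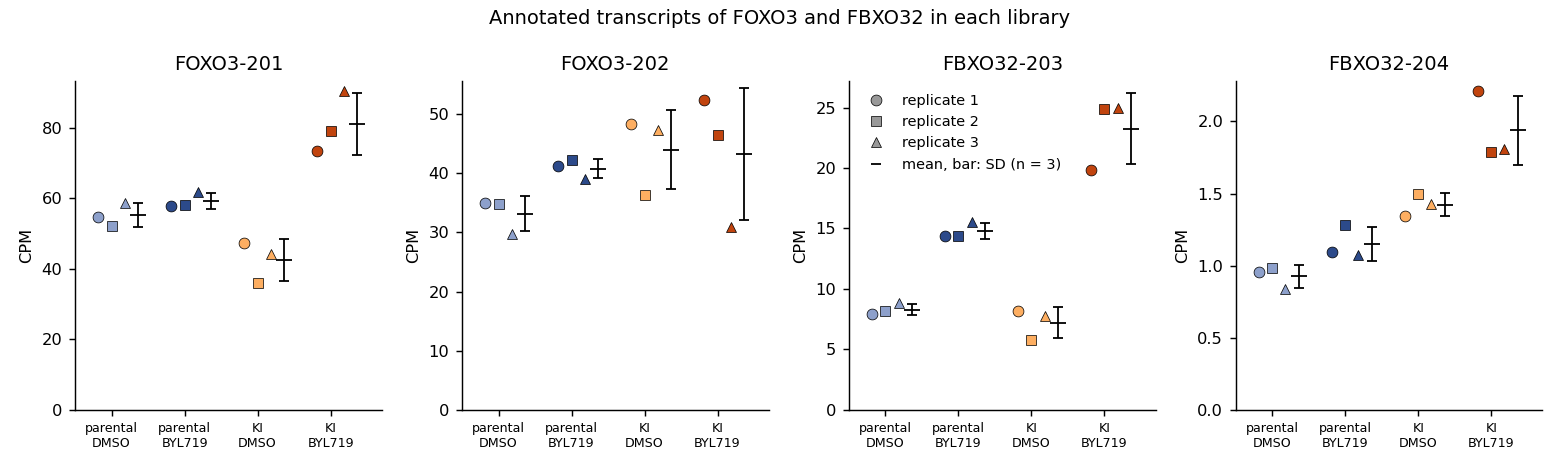
CPM of 2 FOXO3 and 2 FBXO32 transcripts in each library, with the mean and SD of each group. FOXO3-201 is highest in KI BYL719 (73.3 to 90.6 CPM) while FOXO3-202 spans 30.9 to 52.4 CPM there, and FBXO32-204 is higher in KI than in parental libraries under DMSO.

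Most other genes described as FOXO targets were lower in KI than in parental DMSO cells, and most rose with BYL719 in KI cells. The list held 40 genes, of which 35 passed the filter on low counts and were tested. Between the lines in DMSO 22 were lower in KI cells and 6 higher, with a median log2 of -0.40 against 0.00 for all genes. Of all genes tested, 17.2% were lower and 17% higher in that comparison. ERBB3, a receptor that recruits PI3K (-1.97, adjusted p = 3.97e-09), GLUL, glutamine synthetase (-1.68), TNFSF10, the death ligand TRAIL (-1.71), and CDKN1A, the CDK inhibitor p21, which was higher (0.90, adjusted p = 3.87e-08), had the lowest adjusted p of the list. With 1 library left out, 20 to 22 were lower and 5 or 6 higher.

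BYL719 raised 12 of the 35 target genes in parental cells and lowered 0 (median 0.27, against 0.01 for all genes), where 0.844% of all genes rose and 0.588% fell. PDK4, a kinase that restrains pyruvate oxidation, rose from 19.0 to 57.5 CPM by group mean (log2 1.59, adjusted p = 4.75e-05), and GLUL (0.83), CCNG2, a cyclin of cell cycle exit (0.47), and TXNIP, which curbs glucose uptake (0.41), followed by p. The count of target genes that rose in parental cells was 5 to 22 when 1 library was left out, the highest without KI DMSO replicate 2. Over all genes those fits called 73 to 1973 in either direction, also the most without KI DMSO replicate 2, against 302 with all libraries.

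In KI cells BYL719 raised 27 of the 35 and lowered 1, CDKN1A (log2 -0.50, adjusted p = 1.47e-05), with a median of 0.73 against 0.02 for all genes, of which 15.1% rose and 13.2% fell. CCNG2 rose by 1.34, GLUL by 2.29, PDK4 by 3.48 (from 16.3 to 182.8 CPM) and TXNIP by 0.95. In the interaction 19 were positive and 1 negative (CDKN1A, -0.42), with a median of 0.48, against 2.08% of all genes positive and 0.797% negative. Under BYL719, 16 were higher in KI than in parental cells and 6 lower (11.4% and 10.9% of all genes), among them PDK4 (1.69) and SESN3, a stress-induced regulator of mTORC1 (-1.28). Without 1 library the number raised in KI cells was 26 to 28 and the number lowered 1 to 3, and 3 to 7 were lower in KI cells under BYL719. The list was chosen with earlier results of these data known, so its direction is not independent evidence.

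**Figure D5:**
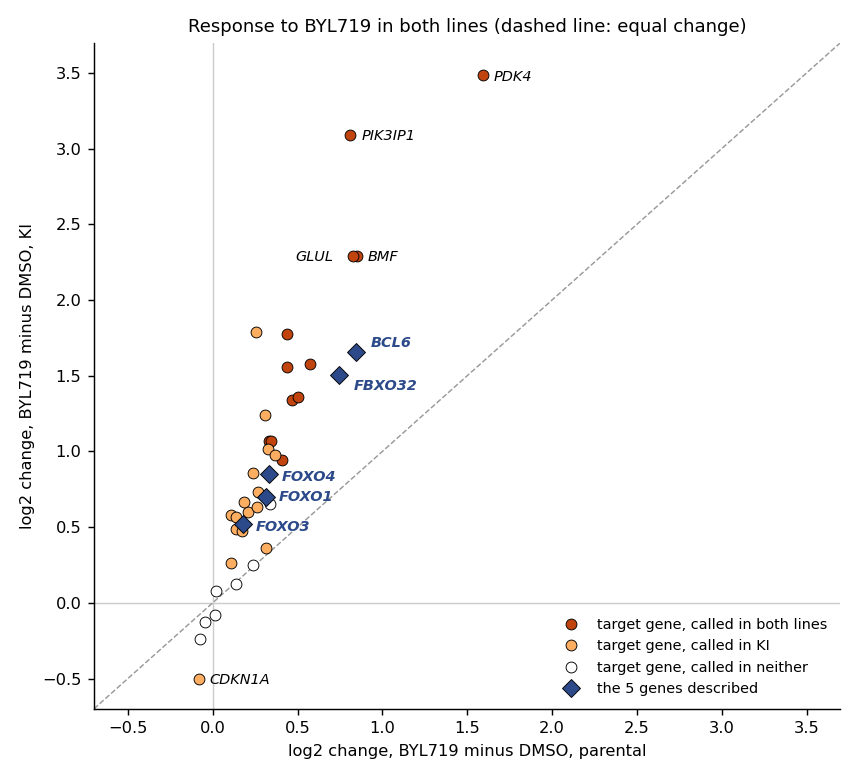
The log2 change with BYL719 in parental cells (horizontal axis) and in KI cells (vertical axis) is plotted for the 35 other FOXO target genes tested (circles) and the 5 genes described (diamonds), and the dashed line marks equal change. All 5 diamonds lie above the dashed line, with BCL6 and FBXO32 beyond FOXO1, FOXO3 and FOXO4, and PDK4 lies at 1.59 and 3.48.

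Promoter windows were available for 35 of the 40 target genes. GTAAACA was in the windows of 5 of these genes, and 4.19% of 27305 genes with a window held it. ATAAACA was in those of 2, and 5.16% of all genes held it.

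Among genes that act on FOXO proteins, SGK1 and PIK3CA had the calls in the interaction. Of 24 tested kinases and phosphatases of the PI3K to FOXO route, 11 were lower and 0 higher in KI than in parental DMSO cells (median -0.11). The 11 are 45.8% of the list, where 34.2% of all genes were called and 17.2% were lower. SGK1, a kinase that phosphorylates FOXO3, fell from 42.4 to 22.8 CPM by group mean (log2 -0.87, adjusted p = 3.6e-07), INPP4B, a lipid phosphatase, fell by 0.76, and PIK3CA by 0.50 on the log2 scale. BYL719 raised 1 of the 24 in parental cells, SGK1 (0.45, adjusted p = 0.00316), where 0.844% of all genes were called higher. In KI cells BYL719 raised 9 and lowered 1 (41.7% of the list called, against 28.3% of all genes). SGK1 (0.87), PIK3CA (0.81) and RICTOR, a subunit of mTORC2 (1.02), were the first by p. RICTOR is also on the list of other FOXO target genes and is counted in both lists. AKT1 had log2 values of -0.07 to -0.03 over the 5 comparisons, with no adjusted p under the threshold. Under BYL719, 2 were higher and 3 lower in KI cells, 20.8% of the list against 22.3% of all genes. The interaction was positive for SGK1 (0.42) and PIK3CA (0.56), 8.33% of the list against 2.87% of all genes. PIK3CA, like the members, was lowest in KI DMSO replicate 2. Without that library 4 were higher in KI DMSO cells and 4 rose in parental cells with BYL719. Also without it, 3 fell in KI cells, 8 were lower in KI cells under BYL719 and 4 had a positive interaction. Calls over all genes rose too in that fit. They were 8382 in place of 7213 between the lines in DMSO, and 1973 in place of 302 in parental cells. With BYL719 in KI cells they were 6977 in place of 5964. Between the lines in BYL719 they were 7442 in place of 4709, and in the interaction 1874 in place of 606. Over all libraries left out in turn the interaction count of the list was 0 to 4.

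Of 21 tested genes for 14-3-3 proteins, nuclear export, ubiquitination, acetylation and FOXO partners, 5 were higher and 4 lower in KI DMSO cells, 42.9% of the list against 34.2% of all genes. MDM2, a ubiquitin ligase that can target FOXO proteins, was higher in KI cells in DMSO (0.54, adjusted p = 1.24e-05) and under BYL719 (0.57, adjusted p = 1.04e-05). No gene of this list was called with BYL719 in parental cells, and in KI cells 4 rose and 5 fell, again 42.9% of the list, against 28.3% of all genes. YWHAG, a 14-3-3 protein, fell by 0.56 and SKP2, an F-box protein that targets FOXO1, fell by 0.33 on the log2 scale. With 1 library left out, 1 to 6 were lower in KI DMSO cells, 0 to 4 fell in parental cells and 5 to 12 fell in KI cells, the highest of each without KI DMSO replicate 2. Over all genes that fit also called more, 8382, 1973 and 6977 in these comparisons in place of 7213, 302 and 5964.

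BCL6 partners and the genes BCL6 is known to repress were called in both directions, in a comparison where 15.1% of all genes rose and 13.2% fell. Of 9 tested partners, BCL6 corepressors among them, BYL719 in KI cells raised 3 and lowered 1: BCORL1 (0.57), BCOR (0.31) and NCOR1 (0.20) rose and PCGF1 (-0.34) fell. Of 14 tested repressed genes, mostly described in B cells, BYL719 in KI cells raised 4 and lowered 4. CDKN1B, the CDK inhibitor p27, rose (0.60), as did PRDM1, a plasma cell factor (0.64), while CDKN1A (-0.50) and CISH, a cytokine signalling inhibitor (-1.12), fell. CDKN1A and CDKN1B are also on the list of other FOXO target genes, so the same values are counted in both lists. In parental cells CISH fell (-0.71, adjusted p = 0.0278) and no gene of this list rose, but no gene was called lower when any 1 of the 6 parental libraries was left out, and 1 was called higher without KI DMSO replicate 2. Between the lines in DMSO 3 were higher and 3 lower, where 17% of all genes were higher and 17.2% lower. With 1 library left out, BYL719 in KI cells raised 4 or 5 and lowered 2 to 6 of the repressed genes, and it raised 2 or 3 and lowered 1 to 3 of the partners.

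The partners and relatives of FBXO32 were a list of 9 tested genes. SKP1, CUL1, RBX1 and NEDD8, the scaffold and its modifier, were called in neither BYL719 comparison, with log2 changes of -0.30 to -0.01. Of the 9, BYL719 raised 1 in KI cells, where 15.1% of all genes rose, FBXO25, the F-box protein nearest to FBXO32 (0.43, adjusted p = 8.63e-05), and 0 in parental cells. FBXO25 was lower in KI than in parental DMSO cells (log2 -0.60, adjusted p = 2.77e-06), 1 of 2 genes lower there, where 17.2% of all genes were lower. Under BYL719, 3 were lower in KI cells (33.3% of the list, against 10.9% of all genes lower), namely FBXO25 (-0.21), CUL1 (-0.18) and CAND1, a cullin exchange factor (-0.22). With 1 library left out, that number was 0 to 3, the lowest without parental BYL719 replicate 3, and BYL719 in KI cells raised 1 or 2 and lowered 0 to 2, with 2 lowered when any of the 3 KI DMSO libraries was left out. TRIM63, the other well known ligase of muscle atrophy, did not pass the filter on low counts.

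The genes most like each member over the 12 libraries were found by Pearson correlation of log2 CPM among 13775 genes, as a description of group patterns shared by these libraries. FOXO1 was most like PCDH9 (r = 0.996), LTBP1 (0.991) and ZMYND8 (0.991). FOXO3 was most like SULT1B1 (0.991), RAPGEF2 (0.990) and STARD9 (0.990). FOXO4 was most like ZNF282 (0.993), AL157829.1 (0.991) and HCG11 (0.990). BCL6 was most like ABHD5 (0.992) and KLF9 (0.992), and FOXO4 came next (0.989). FBXO32 was most like PDK4 (0.994), SMIM14 (0.989) and IL6R (0.988). PCDH9 had group means of 15.1, 20.1, 27.3 and 48.7 CPM in the order in which FOXO1 rose, and PDK4 spanned a wider range than FBXO32, from 16.3 to 182.8 CPM.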

How the data were processed

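RNA was extracted with a QIAGEN RNeasy kit and sequenced as paired reads on an Illumina HiSeq, per the labels' protocols. Trim Galore 0.6.1 with cutadapt, Salmon 1.2.1, DESeq2 1.28.1 and the GRCh38 build are named in the submitters' processing notes. The sources used here do not give strandedness or RNA selection. Tables as deposited give expected counts, TPM and effective length per transcript, estimated by the authors with Salmon. The expected counts as deposited, for 207749 transcripts, were summed by gene identifier and rounded for the gene tests. For the levels of the members they were summed by gene symbol. CPM divides by the library total. TPM values as deposited were summed per gene and used only to compare genes per length. Effective lengths as deposited served only as offsets in an alternative.

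edgeR 4.0.16 (R 4.3.3) was fitted to 21079 genes passing filterByExpr in 12 libraries, with TMM scaling, 4 group means and the robust quasi-likelihood test (two-sided, Benjamini-Hochberg adjustment over all genes, threshold 0.05). A second fit took 93545 transcripts. Alternatives used DESeq2 1.42.0, other scalings, filters and groups, a replicate block and the removal of each library in turn. Figures and sums used Python 3.11.15, pandas 2.3.3, numpy 2.4.6 and matplotlib 3.10.9. Data were simulated for BYL719 against DMSO in KI cells, with 20731 genes and 50 changed per fold size. The test recovered 38% at 1.25-fold, 76% at 1.5-fold, 98% at 2-fold and 98% at 4-fold, with 5 false calls. The real comparison called 28.3% of genes, a larger share than was changed in the simulation. These rates therefore hold only for the simulated setting.

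The members and gene lists were chosen with earlier results of these data known. Named genes were the 5 members, their FOXO relatives, up to 4 called genes per list and comparison with the lowest adjusted p, and the 3 genes of at least 1 CPM most correlated with each member on the log2(CPM + 0.5) scale. Genes named outside this rule (AKT1, SESN3, CDKN1A where it was the only gene lowered, TRIM63 and the ligase core) were chosen after their values were seen. No pair of libraries in a group was near identical: chi-square per degree of freedom was 4.31 to 150.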

Additional observations from a re-analysis of the deposited data

Results flagged for a closer look

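The response to BYL719 differed between the lines for 3 of the 5 genes, by the interaction term of edgeR's quasi-likelihood test: the log2 change was larger in KI than in parental cells by 0.81 for BCL6, by 0.76 for FBXO32 and by 0.52 for FOXO4. All 3 BYL719 libraries lay above all 3 DMSO libraries in each line for these genes. FBXO32 kept its call whichever single library was left out, whereas BCL6 and FOXO4 did not, and effective-length offsets ended all 3 calls.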

How the results depend on the processing

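Every member kept its direction in the BYL719 comparisons and in the interaction under each alternative run. Without KI DMSO replicate 2, the genes called numbered 8382 between the lines in DMSO, 1973 with BYL719 in parental cells, 6977 with BYL719 in KI cells, 7442 between the lines in BYL719 and 1874 in the interaction. Each genotype was 1 line, and Salmon's assignment error was in no test. The cause of the changes below was not tested.

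With DESeq2, FOXO1 passed for BYL719 in parental cells (0.31, adjusted p = 0.0103) and FOXO1 (0.37, adjusted p = 0.0343) and FOXO3 (0.33, adjusted p = 0.0407) passed in the interaction, and 871 and 1407 genes were called in place of 302 and 606. With only the compared groups, FOXO1 (0.31, adjusted p = 3.13e-07) and FOXO3 (0.18, adjusted p = 3.2e-05) passed in parental cells, and 3484 genes were called there and 2610 in KI cells, in place of 5964. FOXO4 missed the threshold in parental cells with library totals without TMM (0.33, adjusted p = 0.0615), with the replicate block (0.33, adjusted p = 0.0889) and with effective-length offsets (0.35, adjusted p = 0.247).

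Effective-length offsets also ended the interaction calls of FOXO4 (0.46, adjusted p = 0.209), BCL6 (0.72, adjusted p = 0.0557) and FBXO32 (0.46, adjusted p = 0.0918), turned FBXO32 between the lines in DMSO to 0.11 (adjusted p = 0.348), and left 130 genes called in parental cells and 261 in the interaction. They lowered the rise of FBXO32 with BYL719 to a log2 of 0.61 in parental and 1.07 in KI cells, and both calls were kept. The 18 correlations of same-numbered deviations were -0.0737 to 0.0831, and the 36 of other-numbered ones were -0.072 to 0.0788. The labels do not say whether a replicate number marks a shared culture or batch, and this was not tested. The block changed no other call of a member. Adding FOXO3B moved the FOXO3 level to 90.2 CPM in parental DMSO and 102.0 in parental BYL719, and TMM-scaled CPM gave 99.1 for FOXO3 and 43.7 for BCL6 in parental BYL719.

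With each library left out in turn, FOXO3 between the lines in DMSO ranged from -0.0633 to 0.10 and was above 0 when KI DMSO replicate 2, parental DMSO replicate 1 or 3, or replicate 1 of either BYL719 group was left out. Genes called ranged from 5759 to 8382 between the lines in DMSO, 73 to 1973 in parental cells, 4237 to 6977 in KI cells, 3562 to 7442 between the lines in BYL719 and 239 to 1874 in the interaction. The ranges for BYL719 in parental cells were 0.301 to 0.326 for FOXO1, 0.159 to 0.189 for FOXO3 and 0.307 to 0.345 for FOXO4. The interaction ranged from 0.259 to 0.426 for FOXO1, 0.232 to 0.394 for FOXO3, 0.441 to 0.557 for FOXO4 and 0.682 to 0.906 for BCL6. Among transcripts with a change of sign, FOXO3-202 ranged from -0.244 to 0.144 for BYL719 in KI cells and from -0.0967 to 0.291 between the lines in BYL719, FBXO32-202 from -0.161 to 0.147 between the lines in BYL719, and FBXO32-204 from -0.0274 to 0.19 in the interaction.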
